A study of Homo sapiens with 12 samples.

Results

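The replication-dependent histone genes encode the histones that package newly made DNA. They were measured here on 73 rows of a whole-transcript array, taken from 20546 rows that carry a gene symbol and 32321 rows in all. A row belonged to the set when its platform annotation listed H1-1 to H1-5 or a symbol beginning with H2AC, H2BC, H3C or H4C and a digit. The rule itself uses symbols and no measured value, but it was chosen with earlier results of these data known. The 73 rows list 71 histone genes, of which 54 lie on chromosome 6, 15 on chromosome 1 and 2 elsewhere, and 2 are pseudogenes. By family there were 5 H1 rows, 15 H2A rows, 23 H2B rows, 12 H3 rows, 15 H4 rows and 3 rows that list genes of more than 1 family. Of the 73 rows, 56 carry 1 symbol and 17 carry several. Members of a family have nearly the same coding sequence, and why the annotation lists several symbols for a row was not tested. A row with several symbols is named here by all of them, and its signal cannot be divided among those genes. Near-identical copies can also add signal to a row with 1 symbol, and how far they did so was not tested.

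Chromatin is built from nucleosomes, in which DNA winds around a core of H2A, H2B, H3 and H4, and linker H1 binds where the DNA enters and leaves. Cells in S phase switch on a large number of near-identical histone genes together, most of them clustered on the short arm of chromosome 6 and fewer on chromosome 1. The mRNAs carry no introns and end in a stem-loop, bound by the protein SLBP, in place of a poly(A) tail. Their amount follows DNA synthesis closely. Proliferating lymphoma lines are therefore a usual place to find them.

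L-428 and L-1236 are established lines grown from Hodgkin lymphomas, tumours of B-cell origin. Each line was transduced either with tGFP, a green fluorescent protein, alone or with a vector that joins tGFP to EBF1 through an internal ribosome entry site. EBF1 is a transcription factor of early B cells. After 8 days of culture tGFP-positive cells were sorted, so every group, controls included, consists of transduced and sorted cells. This gave 4 groups of 3 arrays, which the study calls independent samples. Control groups are written L-428 tGFP and L-1236 tGFP, and those with EBF1 are written L-428 tGFP/EBF1 and L-1236 tGFP/EBF1. RNA was amplified before hybridization. The sources used here name neither the promoter that drives the vector nor the cell cycle stage of the sorted cells.

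All values are the deposited signals on a log2 scale, on which a difference of 1 is a 2-fold difference. Groups are compared within a row, since rows differ in how well their probes bind. Within groups, arrays correlated at 0.992 to 0.997. The row of EBF1, which also lists PDGFRB, rose 22.8-fold in L-428 (limma, adjusted p = 6.87e-18) and 62.8-fold in L-1236 (limma, adjusted p = 4.47e-20). Of 8 Hodgkin markers 7 or 8 lay above the array median in every group, against 2 of 7 B-cell markers in L-428 and 4 or 5 of 7 in L-1236. T-cell markers lay below it in L-428 (0 of 6 above), and 1 of 6 lay above it in L-1236. Of myeloid markers 2 of 5 and of stromal markers 1 of 5 lay above it in every group. L-428 tGFP replicate 3 stood apart, with an interquartile range of 2.28 against 2.49 and 2.47 in its group, as did L-1236 tGFP/EBF1 replicate 1, with 2.17 against 2.31 and 2.26. Results that rest on the former are given with and without it. Interquartile ranges of the L-1236 controls were 2.28, 2.30 and 2.31, so most L-428 arrays were spread wider than these.

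Histone rows covered nearly the whole range of the arrays. A mean signal shows where a row lies in that range and does not rank transcripts. Row means over 12 arrays ran from 5.31 to 12.15, and 10 of 73 rows lay below the array median in all 4 groups. Row means with 1 symbol ran from 7.64 (H1-3) to 12.15 (H1-4) in the linker histones, from 5.35 (H2AC13) to 10.28 (H2AC20) in H2A and from 6.18 (H2BC1) to 11.89 (H2BC12) in H2B. They ran from 7.63 (H3C3) to 10.88 (H3C2) in H3 and from 6.34 (H4C7) to 10.87 (H4C3) in H4. H2AC1 and H2BC1 are known as testis histones, and the H2BC1 row stayed between 6.04 and 6.26 on all 12 arrays, below each array's median.

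The first comparison set the lines against each other without EBF1. Most histone rows were higher in L-428 control cells than in L-1236 control cells. H3C11 and H1-5, which had the widest gaps, were lower in L-428, and the next widest, H1-4 and H4C14, were higher. Of 73 rows, 44 were higher in L-428 and 15 lower (limma, adjusted p of 0.05 or less). Among all rows tested, 47.9% differed between the lines, 26.1% higher and 21.7% lower, so a difference as such is common on these arrays. A larger share of cells in S phase and more histone mRNA per such cell cannot be told apart in these bulk samples. The median log2 difference was 0.28 over the histone rows and -0.0063 over all rows. With dim rows left out these medians were 0.46 and 0.049. At least 2-fold differences were found in 14 of 73 rows against 7.2% of all rows. In 42 rows every L-428 array lay above every L-1236 array, and in 15 rows below, where all rows gave 28% and 24.8%. An unadjusted p under 0.05 was reached by 60 rows against 51.5% of all rows.

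The lines were compared a second time in the cells with EBF1, on arrays that the first comparison does not use. There 39 rows were higher in L-428 and 13 lower, against 28.2% and 22.3% of all rows (50.5% either way), and 9 rows differed 2-fold against 7.65%. An unadjusted p under 0.05 was reached by 53 rows against 54.8% of all rows. In 44 rows every L-428 array lay above every L-1236 array and in 13 below, against 30.8% and 28.8%. The 73 differences of the second comparison correlated with those of the first at r = 0.95 (Spearman rho = 0.91), and 67 had the same sign. These are descriptions over rows that share arrays and probes, and over all 20546 rows the same r was also 0.95. Past the adjusted p in both comparisons were 49 rows, all 49 with the same sign. Of all 20546 rows 8454 passed in both, 8403 of them with the same sign. Whether or not they passed, 16863 of all rows had the same sign. The first split became 40 higher and 16 lower under quantile normalization (27.3% and 24.4% of all rows) and 45 and 13 under median centring (29.3% and 17.5%). Without L-428 tGFP replicate 3 it was 48 and 14 (28.2% and 23.9%). The second split became 41 and 13 under quantile normalization (27.7% and 24.3%) and 43 and 10 under median centring (31.8% and 16.1%). Under quantile normalization its histone median went from 0.29 to 0.19, and its H4 median from 0.11 to -0.0076.

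**Figure D1:**
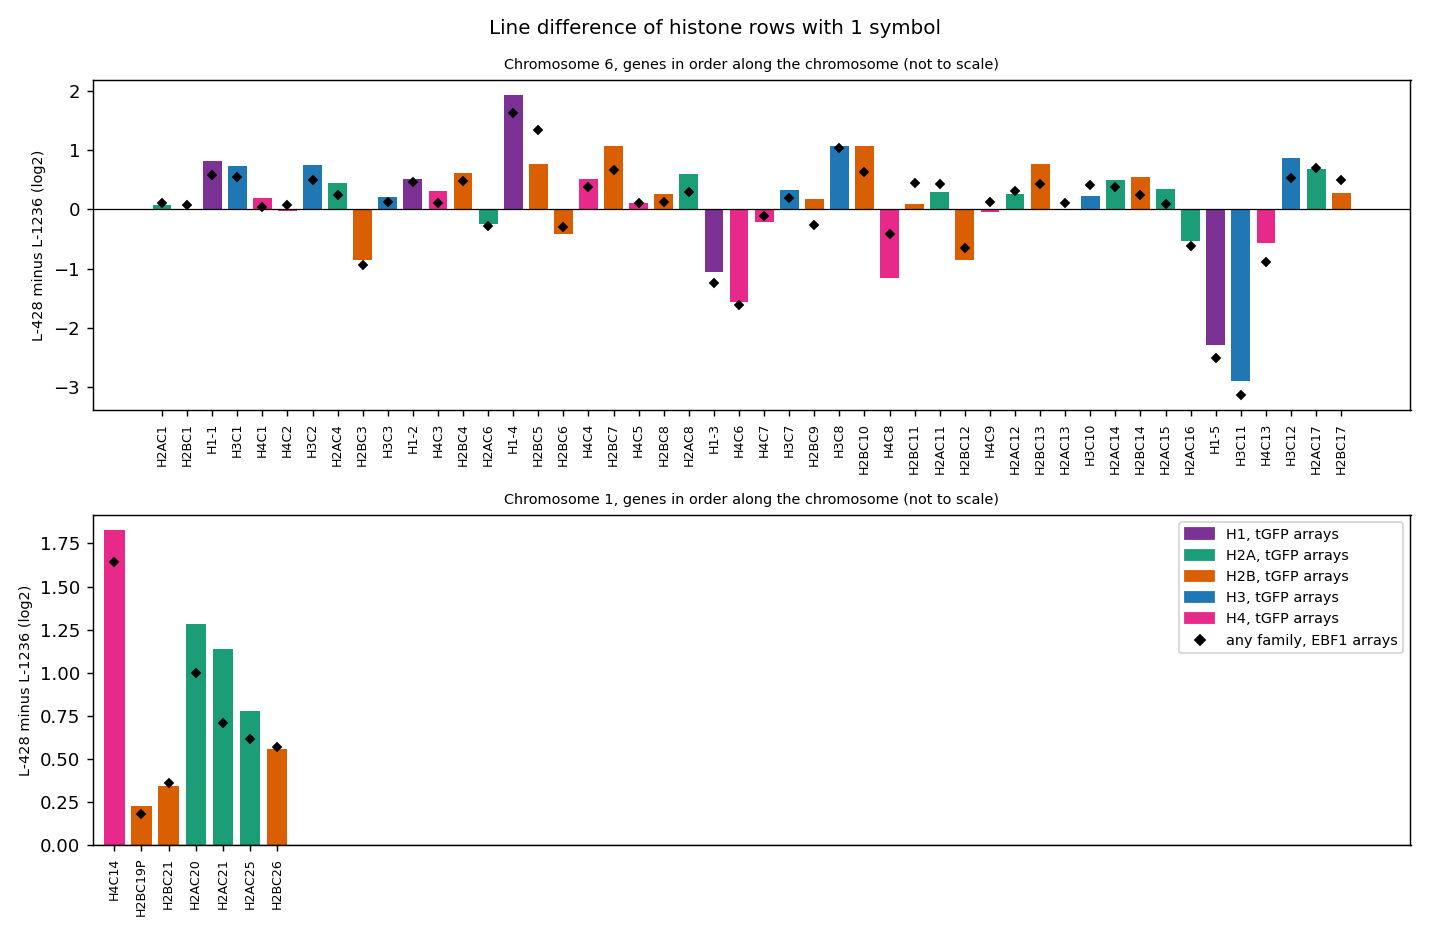
Log2 signal in L-428 minus L-1236 (y axis) for histone rows with 1 symbol, in gene order along chromosome 6 (upper) and chromosome 1 (lower); bars are tGFP arrays coloured by family, diamonds the tGFP/EBF1 arrays, each from group means of 3 arrays. All 7 chromosome 1 bars lie above 0, and the lowest bars on chromosome 6, H3C11 (-2.90) and H1-5 (-2.29), stand side by side.

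Linker histones held 2 of the widest differences, in opposite directions. H1-4 signals were 13.11, 13.38 and 12.89 in L-428 control cells and 11.23, 11.17 and 11.20 in L-1236 control cells. With EBF1 they were 12.99, 12.95 and 12.88 in L-428 and 11.22, 11.33 and 11.40 in L-1236. No array of a line reached the other line's range. The difference was 1.93 ± 0.090 (log2, SE) in controls, or 3.81-fold (limma, adjusted p = 1.18e-12), and 1.62 with EBF1. H1-5 ran the other way, with 6.70, 6.60 and 6.78 in L-428 controls against 8.85, 9.09 and 9.0 in L-1236 controls. That is -2.29 ± 0.081, 4.88-fold lower in L-428 (limma, adjusted p = 1.8e-14), and -2.51 with EBF1. H1-3 was also lower in L-428 (-1.06 and -1.25), while H1-1 (0.82 and 0.57) and H1-2 (0.51 and 0.45) were higher. The mean over the 5 H1 rows was 9.17 ± 0.10 in L-428 controls and 9.18 ± 0.042 in L-1236 controls (SD, n = 3), although each of the 5 rows differed between the lines.

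The 150 bases upstream of the annotated starts of H1-4 and H1-5 are shown because these linker genes had the widest differences of their family. They come from the RefSeq promoter table (GRCh38.p14) and are written 5′ to 3′ on the gene's strand. Capitals mark CCAAT and TATAAA or their reverse complements.
H1-4, chr6:26156179-26156328, plus strand: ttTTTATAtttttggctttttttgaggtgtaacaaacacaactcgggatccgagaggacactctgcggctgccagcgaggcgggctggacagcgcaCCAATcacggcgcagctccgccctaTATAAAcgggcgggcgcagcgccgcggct
H1-5, chr6:27867589-27867738, minus strand: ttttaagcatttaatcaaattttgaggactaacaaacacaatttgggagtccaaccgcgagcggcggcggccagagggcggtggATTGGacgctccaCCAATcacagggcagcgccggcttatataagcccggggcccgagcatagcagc
Both stretches hold CCAAT close to 50 bases before the start, at -54 to -50 in H1-4 and -53 to -49 in H1-5. The exact letters TATAAA were present near the start of H1-4 (-29 to -24). This window of H1-5 lacks them but holds the similar letters tatataag near the start. Only exact letters were searched, so similar ones are not marked.

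Among H3 genes the H3C11 row had the widest difference of all 73. Its signals were 7.71, 7.74 and 7.52 in L-428 controls and 10.59, 10.58 and 10.49 in L-1236 controls. With EBF1 they were 7.50, 7.46 and 7.37 in L-428 and 10.36, 10.70 and 10.67 in L-1236. The lines were far apart on every array, by -2.90 ± 0.083 in controls (limma, adjusted p = 9.64e-16), 7.44-fold lower in L-428, and by -3.13 with EBF1. A second row that lists H3C11 together with H3C6 was dim, between 5.40 and 5.64 on all arrays, and did not pass (-0.052, limma, adjusted p = 0.509). Among genes with a row of their own, H3C11 and H1-5 are neighbours in gene order, and their flanking genes on chromosome 6 were lower in L-428 too. H4C13 differed by -0.57 (-0.88 with EBF1). H2AC16, a dim row below the array median in every group, differed by -0.53 (-0.61 with EBF1). The genes beyond these flanking genes were higher in L-428, H3C12 by 0.87 and H2AC15 by 0.35 in controls.

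The other H3 rows mostly lay higher in L-428, 8 of 12 in all, against 26.1% of all rows. H3C8 signals were 9.54, 9.58 and 9.39 in L-428 controls against 8.46, 8.50 and 8.34 in L-1236 controls. The groups did not overlap, and the difference was 1.07 ± 0.071 (limma, adjusted p = 2.27e-10), with 1.03 in the cells with EBF1. H3C12 (0.87), H3C2 (0.75) and H3C1 (0.73) were also higher in controls. The H3C13, H3C14 and H3C15 genes on chromosome 1 share 3 rows that did not give the same value. Their control differences were 1.24 (row 7919614), 0.94 (row 7919612) and 0.096 (row 7919589), the last not past the test (limma, adjusted p = 0.34).

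Nearly all H4 genes encode the same protein, and their rows moved both ways. Of 15 rows 7 were higher in L-428 and 4 lower, against 26.1% and 21.7% of all rows. H4C14 signals were 10.89, 10.90 and 10.71 in L-428 controls and 9.01, 9.02 and 8.99 in L-1236 controls. The gap was far wider than the spread within either line, 1.83 ± 0.066 (limma, adjusted p = 2.93e-14) or 3.55-fold, and 1.64 with EBF1. H4C6 signals were 7.09, 7.44 and 7.32 in L-428 controls and 8.76, 8.93 and 8.83 in L-1236 controls, -1.56 ± 0.086 (limma, adjusted p = 1.37e-11), 2.95-fold lower in L-428. With EBF1 its difference was -1.61. H4C8 signals were 9.65, 9.67 and 9.52 against 10.58, 10.78 and 10.95, -1.16 ± 0.081 (limma, adjusted p = 4.68e-10), and the gap narrowed to -0.42 with EBF1. H4C4 (0.51), H4C16 (0.48) and H4C3 (0.31) were higher in L-428 controls. The row that lists H4C14 with H4C15 differed by 0.17 in controls, a call lost in 6 alternatives, and by 0.89 with EBF1. The paired rows of H4C11 and H4C12 differed by 0.78 (row 8124521, mean signal 10.59) and 0.090 (row 8117598, mean signal 5.31).

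The 150 bases upstream of the H4 genes with the widest differences, written and marked as above, are the following.
H4C14, chr1:149832507-149832656, plus strand: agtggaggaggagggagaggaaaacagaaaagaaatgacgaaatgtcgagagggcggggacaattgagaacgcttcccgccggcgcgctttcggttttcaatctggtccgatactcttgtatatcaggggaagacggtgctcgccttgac
H4C6, chr6:26240243-26240392, plus strand: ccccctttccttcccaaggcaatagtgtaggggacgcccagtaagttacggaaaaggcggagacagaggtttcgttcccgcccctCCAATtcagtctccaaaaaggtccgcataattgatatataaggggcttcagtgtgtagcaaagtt
H4C8, chr6:26285535-26285684, minus strand: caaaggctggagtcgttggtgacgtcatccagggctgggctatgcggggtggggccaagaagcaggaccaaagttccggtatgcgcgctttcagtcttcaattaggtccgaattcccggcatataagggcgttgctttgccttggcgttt
Of these stretches, H4C6 alone holds CCAAT, at -65 to -61. None holds the exact letters TATAAA, though H4C6 holds tatataag and H4C8 holds atataagg near the start.

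H2A rows were higher in L-428 in 11 of 15 cases and lower in 2, against 26.1% and 21.7% of all rows. H2AC20 signals were 11.01, 11.05 and 10.61 in L-428 controls against 9.57, 9.68 and 9.55 in L-1236 controls. All L-428 arrays exceeded all L-1236 arrays, by 1.29 ± 0.087 on average (limma, adjusted p = 2.86e-10), and by 1.00 with EBF1. Its chromosome 1 neighbour H2AC21 differed by 1.14 (0.71 with EBF1), and the row shared by H2AC18, H2AC19, H2AC20 and H2AC21 by 1.08 (0.91 with EBF1). H2AC25 (0.78), H2AC17 (0.68) and H2AC8 (0.59) were higher in L-428 controls, while H2AC16 (-0.53) and H2AC6 (-0.25, lost in 4 alternatives) were lower.

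Among the 23 H2B rows, 12 were higher in L-428 controls and 6 lower, against 26.1% and 21.7% of all rows. H2BC10 signals were 7.87, 7.72 and 7.43 in L-428 controls and 6.62, 6.55 and 6.64 in L-1236 controls, a difference of 1.07 ± 0.089 (limma, adjusted p = 5.17e-09) that was 0.63 with EBF1. H2BC7 differed by 1.07 (0.66 with EBF1), H2BC5 by 0.76 (1.34 with EBF1) and H2BC13 by 0.76 (0.43 with EBF1). H2BC12 ran the other way, with 11.67, 11.73 and 11.26 in L-428 controls and 12.48, 12.34 and 12.40 in L-1236 controls. It was lower in L-428 by -0.85 ± 0.095 (limma, adjusted p = 3.24e-07), as were H2BC3 (-0.86) and H2BC6 (-0.41). The row of H2BC18, H2BP1 and H2BC21 was lower by -0.56 in controls and did not pass with EBF1 (0.093, limma, adjusted p = 0.264).

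**Figure D2:**
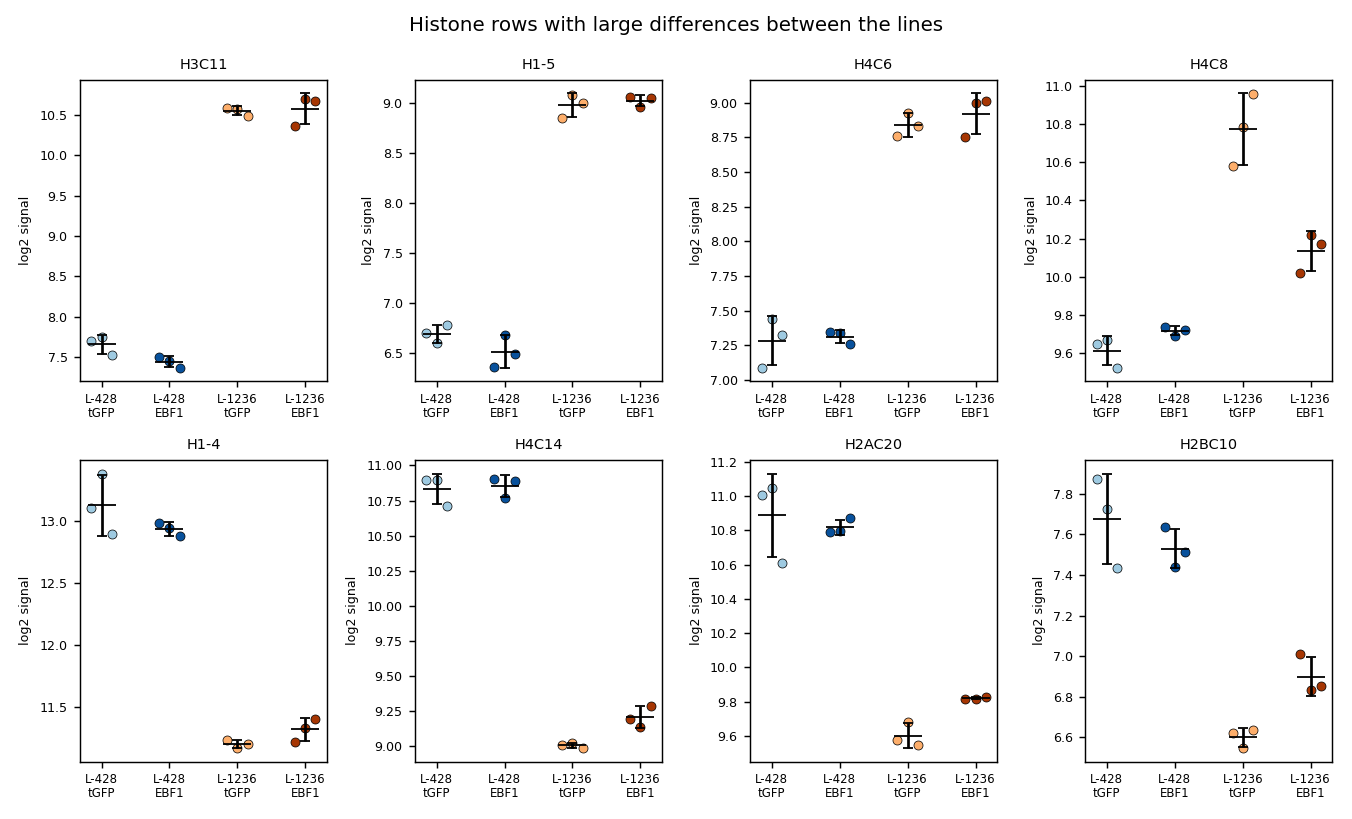
Log2 signal on each of 12 arrays for 8 histone rows with large line differences, grouped on the x axis by line and transduction; bars are mean ± SD, n = 3, and the y axes do not start at 0. H3C11, H1-5, H4C6 and H4C8 lie lower in L-428, and H1-4, H4C14, H2AC20 and H2BC10 lie higher, with no overlap of the lines in controls.

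On chromosome 1 all 7 rows with 1 symbol were higher in L-428 controls. Along chromosome 6, 27 of 48 such rows were higher and 12 lower. Of all rows 26.1% were higher and 21.7% lower. Many H2A and H2B genes stand head to head, with 1 short stretch between divergent starts. The RefSeq promoter table places 11 such pairs, 194 to 248 bases apart, and both partners have a row with 1 symbol in 9. In 8 of these 9 pairs the line difference in controls had the same sign for both partners. Of all rows with 1 symbol 42 of 56 were positive, and in 3 of the 8 pairs a partner lay close to 0 and did not pass (H2AC1 at 0.075 with H2BC1 at 0.0053, H2BC11 at 0.081 and H2AC13 at 0.0088). The exception was H2BC4 (0.62) with H2AC6 (-0.25), both past the test. Within a pair the sizes could differ widely, as for H2AC20 (1.29) and H2BC21 (0.34), or H2BC13 (0.76, past the test) and H2AC13, a row near the bottom of the range.

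The genes that make, process and load histones were read beside these rows. SLBP, which binds the histone mRNA stem-loop, was 0.39 higher in L-428 controls (limma, adjusted p = 3.8e-05), while NPAT, the coactivator of histone transcription at the histone locus body, was lower by -0.78 (limma, adjusted p = 1.5e-08). CASP8AP2 (FLASH), a processing factor of the same body, was higher by 0.88, and ERI1, an exonuclease that trims and degrades histone mRNA, by 0.71. HINFP, an H4 promoter factor, was lower by -0.45, and POU2AF1, the B-cell coactivator of octamer-binding factors, by -0.85. In all 9 of 20 processing and transcription genes were higher in L-428 controls and 6 lower, against 26.1% and 21.7% of all rows. With EBF1 the values were SLBP 0.52, NPAT -0.76, CASP8AP2 1.01 and ERI1 0.96.

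Histone chaperones mostly lay higher in L-428 controls, 15 of 20, with 2 lower. ASF1A, which hands H3-H4 to the assembly factors, signalled 10.61, 10.63 and 10.38 in L-428 controls against 8.56, 8.53 and 8.61 in L-1236 controls. That difference of 1.98 (limma, adjusted p = 7.1e-14) was the widest on the list. SUPT16H, a subunit of FACT, was 0.94 higher, and CABIN1 (-0.58) and DAXX (-0.36), partners of H3.3 deposition, were lower. Of 10 measured variant histone genes, which are made outside S phase as well, 6 were higher and 0 lower, led by the linker variant H1-10 (1.54). S-phase and replication genes were higher in L-428 controls in 17 of 25 cases, among them MCM4 (1.5) and TK1 (1.26), and lower in 2, CCNE1 (-0.99) and CDC45 (-0.20, lost in 5 alternatives). Mitosis genes were higher in 17 of 18 and lower in 0, among them AURKB (1.60). For each of these lists the shares of all rows were 26.1% higher and 21.7% lower.

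The second question was what EBF1 did to histone rows in L-428. Few rows moved, and 0 reached 2-fold with the adjusted p, against 0.0973% of all rows. H2AC15, H2BC9, H2BC13 and the pseudogene H2BC19P fell, and H2BC5 and the row of H4C15 and H4C14 rose. These 6 of 73 rows passed (limma, adjusted p of 0.05 or less), 2 higher and 4 lower, against 4.34% of all rows (2.62% higher and 1.72% lower). At an unadjusted p under 0.05 there were 25 of 73 rows against 14.3%. The median log2 change was -0.085 over the histone rows and 0.0037 over all rows, and 57 of 73 histone rows had a negative value, against 9891 of all 20546 rows. Without L-428 tGFP replicate 3 the histone median was -0.15 and 59 of 73 values were negative. In 12 rows every EBF1 array lay below every control array, and in 3 rows above, where all rows gave 6.98% and 11.3%.

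H2AC15 signals were 8.69, 8.65 and 8.40 in L-428 controls and 8.06, 8.12 and 8.23 with EBF1. The groups did not overlap, and H2AC15 fell by 0.44 ± 0.074 (limma, adjusted p = 0.00109). H2BC9 signals were 10.95, 11.14 and 10.66 in controls and 10.57, 10.50 and 10.55 with EBF1. It fell by 0.38 ± 0.090 (limma, adjusted p = 0.0208), although control replicate 3 lay close to the EBF1 arrays. H2BC19P fell by 0.34 (limma, adjusted p = 0.0294) and H2BC13 by 0.32 (limma, adjusted p = 0.0239).

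The row of H4C15 and H4C14 gave 9.47, 9.51 and 9.34 in L-428 controls and 9.78, 9.81 and 9.82 with EBF1. All EBF1 arrays were above all controls, and the row rose by 0.36 ± 0.062 (limma, adjusted p = 0.00143). The row with H4C14 as its only symbol stood at 0.019 and did not pass (limma, adjusted p = 0.976). H2BC5 signals were 8.65, 8.37 and 8.29 in controls and 8.64, 8.80 and 8.80 with EBF1. Here the groups overlapped, and H2BC5 rose by 0.31 ± 0.082 (limma, adjusted p = 0.0389). The rows nearest to the limit on its far side were that of H3C4 and H2AC7 (-0.28, limma, adjusted p = 0.0687) and H1-1 (-0.21, limma, adjusted p = 0.0884).

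Among single arrays left out, L-428 tGFP replicate 3 moved the number of rows that passed most. The mean over the 73 rows was 8.90, 8.91 and 8.70 on the 3 control arrays and 8.77, 8.74 and 8.75 on the EBF1 arrays. Replicate 3 thus lay below the EBF1 arrays and the other two above them. On the same array the mean of 25 S-phase and replication genes was 9.82 against 10.04 on both others, and that of 18 mitosis genes 10.41 against 10.59 and 10.65. Without this array 22 rows passed, 1 higher and 21 lower, against 2.26% and 4.1% of all rows. The 21 included H3C2 (-0.39), H2BC14 (-0.38), H2BC7 (-0.44), H1-1 (-0.30), H1-2 (-0.25) and H1-4 (-0.31), besides H2AC15 (-0.53), H2BC9 (-0.50), H2BC19P (-0.42) and H2BC13 (-0.39). The row that rose was that of H4C15 and H4C14 (0.32). At the same limit of 0.05, H2AC15 and the row of H4C15 and H4C14 passed under every alternative processing and with each array left out, and the calls of the other 4 rows were each lost in 6 to 12 of them. Without L-428 tGFP replicate 2, L-428 tGFP/EBF1 replicate 2 or L-428 tGFP/EBF1 replicate 3, 2 rows passed. The split of 2 higher and 4 lower became 2 and 11 under quantile normalization (4.69% and 3.16% of all rows) and 1 and 1 under median centring (1.68% and 0.745%), where the share of histone rows lay near that of all rows.

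**Figure D3:**
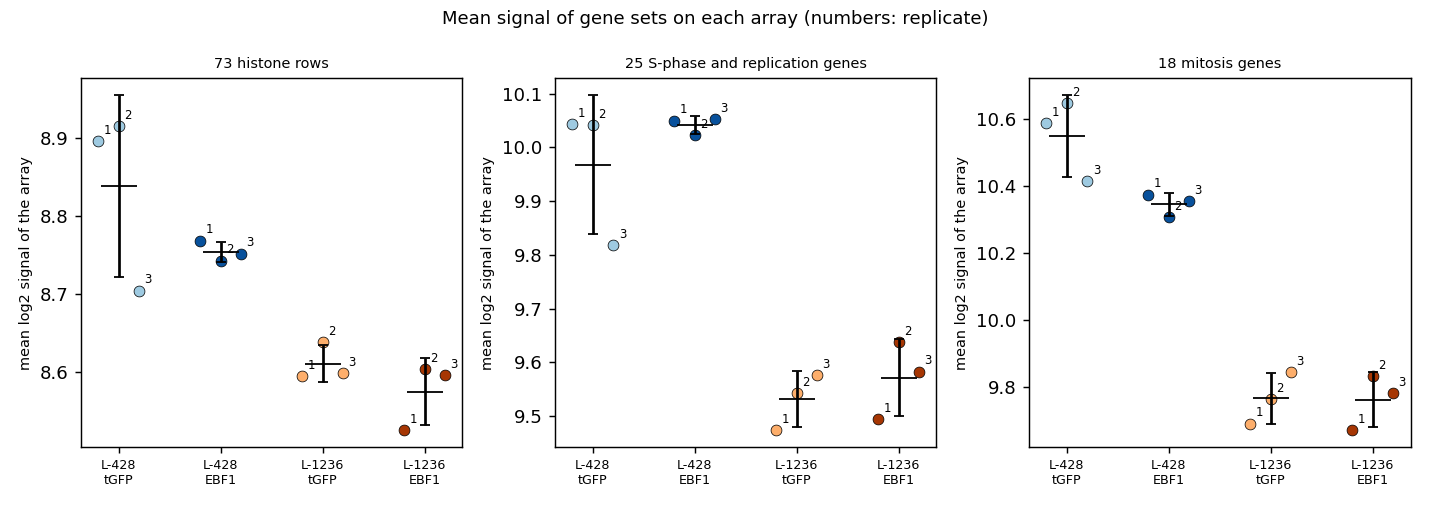
Mean log2 signal per array (y axis, not from 0) of the 73 histone rows, 25 S-phase and replication genes and 18 mitosis genes, by group, with replicate numbers beside the points and mean ± SD, n = 3. L-428 tGFP replicate 3 is lowest of its group in all 3 panels (8.70, 9.82 and 10.41), and all L-428 means exceed all L-1236 means.

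By family, values in L-428 were negative for all 5 H1 rows (median -0.18), 12 of 12 H3 rows (median -0.14), 18 of 23 H2B rows (median -0.085) and 11 of 15 H2A rows (median -0.053). Over all 20546 rows 9891 were negative. The H3 rows are not all separate genes, since several list H3C13, H3C14 and H3C15 together and H3C11 also shares a row with H3C6. The H3 count was 11 of 12 under quantile normalization and under median centring. Without L-428 tGFP replicate 3 the medians were -0.25 (H1), -0.21 (H3), -0.18 (H2B) and -0.11 (H2A). No H1 or H3 row passed on all arrays as deposited. Without that array 3 H1 and 4 H3 rows fell, against 4.1% of all rows. Under quantile normalization 1 and 2 fell, against 3.16%. H4 stood at 8 of 15, with a median of -0.0023 that turned positive under median centring (0.012) and was -0.068 without that array. In cell cycle genes 6 of 18 mitosis genes fell in L-428 (9 without L-428 tGFP replicate 3), among them BUB1 (-0.36) and KIF20A (-0.34), and 0 rose. Of all rows 1.72% fell and 2.62% rose, and 4.1% fell without that array. Of 25 S-phase and replication genes 0 passed, with or without that array. CSTF2 (0.34) and CSTF2T (0.37), cleavage stimulation factors of mRNA 3′ ends, rose, and the chaperone ASF1A fell by 0.39. They were the only calls among 20 processing and transcription genes and 20 chaperones, against 2.62% of all rows higher and 1.72% lower.

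In L-1236, 12 histone rows passed with EBF1. H4C8, H2BC11, H2BC17, H2BC5, H2AC11, H2BC19P, the row of H4C15 and H4C14 and 2 rows that list H2BC18 fell, and H2BC10, H2AC8 and H2AC4 rose. Of 73 rows 3 were higher and 9 lower (limma, adjusted p of 0.05 or less), against 9.64% of all rows (3.69% higher and 5.95% lower), and 0 reached 2-fold, against 0.146%. At an unadjusted p under 0.05 there were 28 against 20.8% of all rows. The median over the histone rows was -0.0052, with 37 of 73 values negative and 36 positive, where 9574 of all 20546 rows were negative. In 18 rows EBF1 arrays all lay below controls and in 10 above, where all rows gave 15.1% and 11.6%.

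H4C8 changed most. Its signals were 10.58, 10.78 and 10.95 in L-1236 controls and 10.02, 10.22 and 10.17 with EBF1. The groups did not overlap, and H4C8 fell by 0.64 ± 0.081, 1.55-fold (limma, adjusted p = 2.97e-05). The row of H2BC18, H2BP1 and H2BC21 gave 9.63, 9.62 and 9.58 in controls and 9.01, 9.18 and 9.06 with EBF1. It fell by 0.52 ± 0.067 (limma, adjusted p = 2.85e-05), and row 7919584 of H2BC18 and H2BP1 by 0.52 ± 0.094 (limma, adjusted p = 0.00113). Of the other rows that list H2BC18, row 7904465 of the same pair (-0.033, limma, adjusted p = 0.892) and the row shared with FCGR1BP (0.033, limma, adjusted p = 0.866) did not pass. H2BC21, which has a row to itself, stood at 0.11 (limma, adjusted p = 0.536).

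H2BC11 signals were 8.12, 8.06 and 8.17 in L-1236 controls and 7.64, 7.68 and 7.53 with EBF1, a fall by 0.50 ± 0.064 (limma, adjusted p = 3.01e-05). Its head-to-head partner H2AC11 went from 8.63, 8.64 and 8.56 to 8.37, 8.44 and 8.36. H2AC11 fell by 0.22 ± 0.068 (limma, adjusted p = 0.0441), again with no overlap. H2BC17 fell by 0.38 ± 0.060 (limma, adjusted p = 0.000264), from 8.09, 8.24 and 8.09 to 7.75, 7.71 and 7.80. Its partner H2AC17 stood at -0.073 (limma, adjusted p = 0.635).

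The row of H4C15 and H4C14 gave 9.21, 9.29 and 9.33 in L-1236 controls and 8.84, 8.93 and 8.98 with EBF1, and fell by 0.36 ± 0.062 (limma, adjusted p = 0.000751). H2BC5 fell by 0.27 ± 0.082 (limma, adjusted p = 0.0422), from 7.67, 7.66 and 7.71 to 7.32, 7.41 and 7.50. The rows that rose had values of 0.30 (H2BC10), 0.28 (H2AC8) and 0.25 (H2AC4). H2AC8 was the tightest of them, with 7.95, 7.96 and 7.96 in controls and 8.20, 8.29 and 8.21 with EBF1. Nearest to the limit on its far side were H2AC21 (0.22, limma, adjusted p = 0.0572) and H4C14 (0.20, limma, adjusted p = 0.0665).

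The split of 3 higher and 9 lower in L-1236 became 7 and 11 under quantile normalization (7.03% and 7.88% of all rows) and 0 and 6 under median centring (2.77% and 3.85%). H4C8, the 2 rows of H2BC18 that fell, H2BC11, H2BC17 and the row of H4C15 and H4C14 passed at 0.05 under every alternative processing and with each array left out. At that limit H2AC8 was lost under median centring alone, and each other call in 8 to 11 alternatives. Without L-1236 tGFP replicate 3, 7 rows passed, and without L-428 tGFP replicate 3, which changes only the pooled spread here, 20, 8 higher and 12 lower (5.37% and 8.74% of all rows). Around these rows, ERI1 fell by 0.40, the chaperone ASF1A by 0.52 and NASP, which stores H3-H4, by 0.19, and NAP1L4, a chaperone of H2A-H2B, rose by 0.24. That is 1 of 20 processing and transcription genes lower, and 2 of 20 chaperones lower and 1 higher. Among all rows 5.95% were lower and 3.69% higher. The calls of NASP and NAP1L4 were lost in 16 and 7 alternatives. Of 25 S-phase and replication genes, CDK2 (0.53) and GINS2 (0.38) rose and CCNE1 fell by 0.35. PLK1 (0.79) was the only mitosis gene of 18 to pass, where 9.64% of all rows passed.

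**Figure D4:**
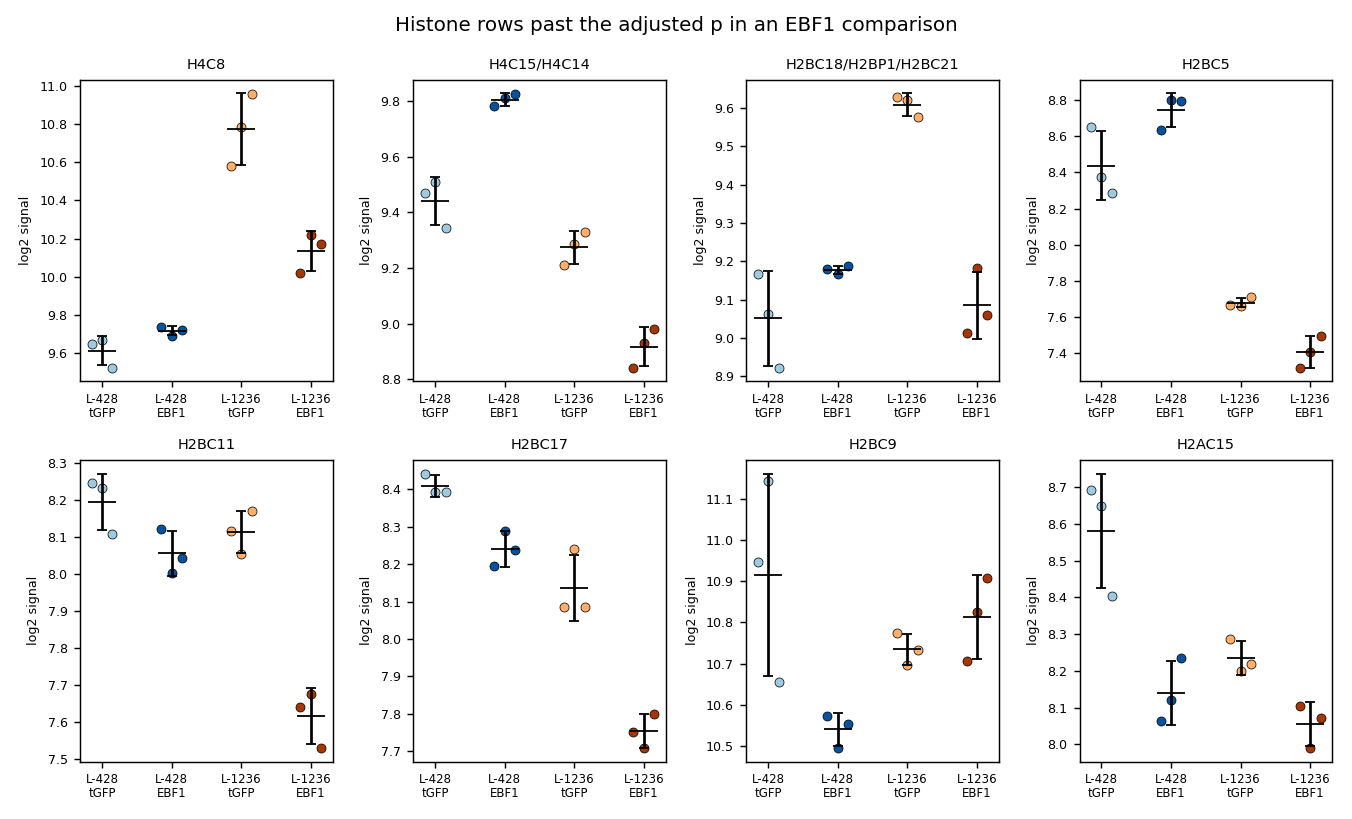
Log2 signal on each of 12 arrays for 8 histone rows past the test in an EBF1 comparison, by line and transduction, with mean ± SD, n = 3; the y axes do not start at 0. H4C8, H2BC11 and the row of H2BC18, H2BP1 and H2BC21 drop with EBF1 in L-1236, and the row of H4C15 and H4C14 and H2BC5 move up in L-428 and down in L-1236.

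Upstream stretches are shown for H2BC11 and H2BC9, H2B genes that fell in L-1236 and L-428 respectively, and for H2BC5, which moved in opposite directions. For H2BC11 and H2BC5 they cover 150 bases and for H2BC9 250. Capitals mark CCAAT or TATAAA as above, the octamer ATTTGCAT, and the EBF palindrome on either strand. That palindrome was searched as TCCC followed by any 2 bases and then by GGGA.
H2BC11, chr6:27132796-27132945, minus strand: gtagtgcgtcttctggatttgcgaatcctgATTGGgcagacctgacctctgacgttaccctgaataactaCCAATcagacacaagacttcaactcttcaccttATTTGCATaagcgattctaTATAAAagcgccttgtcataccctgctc
H2BC5, chr6:26157971-26158120, plus strand: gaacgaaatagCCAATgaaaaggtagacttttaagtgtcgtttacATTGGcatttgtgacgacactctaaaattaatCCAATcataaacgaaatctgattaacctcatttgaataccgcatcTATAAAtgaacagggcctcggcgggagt
H2BC9, chr6:26251364-26251613, plus strand: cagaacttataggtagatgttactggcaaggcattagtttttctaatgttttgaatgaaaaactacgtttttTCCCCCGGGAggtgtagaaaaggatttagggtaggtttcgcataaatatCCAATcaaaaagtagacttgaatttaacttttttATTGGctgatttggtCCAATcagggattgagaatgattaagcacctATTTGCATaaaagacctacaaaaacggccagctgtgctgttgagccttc
H2BC11 and H2BC9 carry the octamer shortly before the start, at -47 to -40 and -49 to -42, and it is not in these letters of H2BC5. The EBF palindrome in H2BC9 lies at -178 to -169. A match is a match of letters and says nothing of binding.

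Promoters of 63 of the 71 genes were matched in the RefSeq table, in windows of 250 bases before to 50 after the start, searched on both strands. The octamer, a motif long known from H2B promoters, was found in 14 of 18 H2B and 11 of 16 H2A windows, and in 1 of 11 H3, 0 of 5 H1 and 0 of 13 H4 windows. That is 41.3% of the histone genes against 2.19% of all genes in the table. Windows of head-to-head pairs overlap, so partners can share a match. CCAAT was found in 53 of 63 windows against 39.7% of all genes, in every H1, H2A, H2B and H3 window and in 3 of 13 H4 windows. TATAAA was found in 43 of 63 against 14% of all genes. The EBF palindrome was found in 1 of 63 windows, that of H2BC9, against 1.49% of all genes. In the stretches printed here no matches of different motifs overlap. Of the rows with 1 symbol and a matched window, the octamer was present in 3 of 3 that rose and 3 of 5 that fell in L-1236, and in 17 of 42 that did not pass. In L-428 it was present in 0 of 1 that rose, 1 of 3 that fell and 22 of 46 that did not pass. The 3 that rose in L-1236 are H2A or H2B genes, the families in which most windows hold the octamer.

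**Figure D5:**
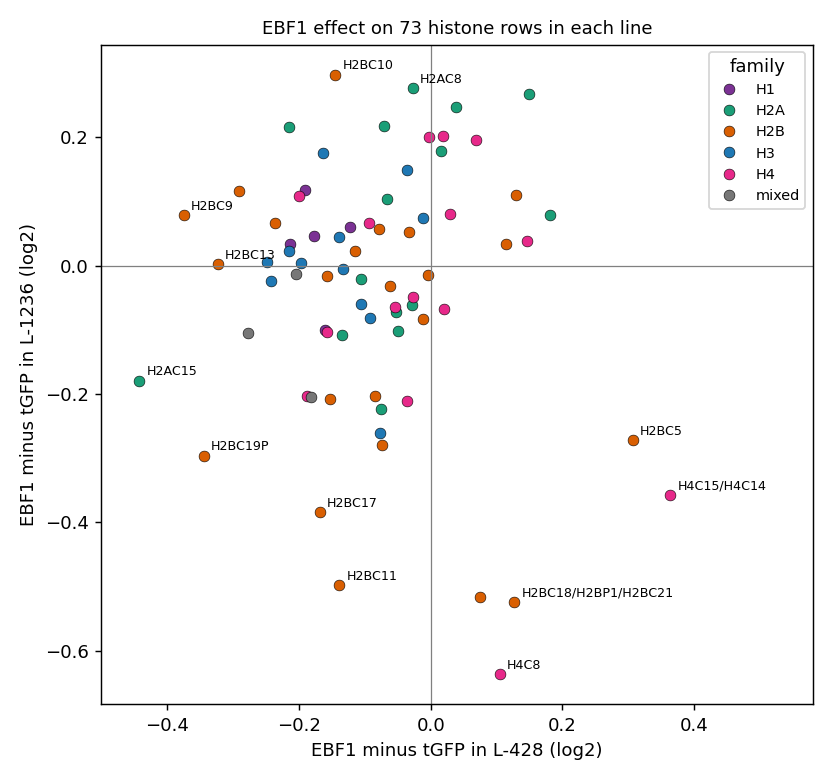
EBF1 minus tGFP (log2) of each of 73 histone rows in L-428 (x axis) and L-1236 (y axis), coloured by family, from group means of 3 arrays. Most points lie left of 0 in L-428 (57 of 73), and the row of H4C15 and H4C14 and H2BC5 lie at the lower right, higher in L-428 and lower in L-1236.

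The last comparison tested whether the EBF1 effect differed between the lines. It did for 9 of 73 rows, 6 of them more positive in L-428 and 3 more negative (limma, adjusted p of 0.05 or less), against 5.16% of all rows (3.38% and 1.79%). At an unadjusted p under 0.05 there were 21 rows against 16.7%. The widest difference was that of H4C8 (0.74 ± 0.11, limma, adjusted p = 0.000609), which stood at 0.10 in L-428 and fell in L-1236. The row of H4C15 and H4C14 differed by 0.72 ± 0.088 (limma, adjusted p = 5.32e-05) and H2BC5 by 0.58 ± 0.12 (limma, adjusted p = 0.00547), both past the test in each line with opposite signs. H2BC19P was the only row past the test in both lines with the same sign (-0.34 and -0.30). Over the 73 rows the effects of the lines, which share no arrays, correlated at r = -0.096 (rho = 0.044), and 41 had the same sign, where all 20546 rows gave r = 0.25 (rho = 0.095) with 10605 of the same sign. H4C8, the row of H4C15 and H4C14, H2BC5 and the row of H2BC18, H2BP1 and H2BC21 (0.65) passed at 0.05 under every alternative processing and with each array left out. The split of 6 and 3 became 6 and 8 under quantile normalization (5.31% and 3.76% of all rows), 4 and 0 under median centring (1.95% and 0.964%), and 6 and 16 without L-428 tGFP replicate 3 (3.41% and 3.68%).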

How the data were processed

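Whole-transcript arrays of 12 samples were read from 1 table of deposited log2 values, with 1 value per row and array. The log base was inferred from the range of the values, and how the authors summarized and normalized them is not given in the sources used here. Gene names came from the platform annotation, and all 71 histone genes matched RefSeq symbols (GRCh38.p14). No further scaling was applied. Group means of 4 groups were fitted with limma 3.58.1 in R 4.3.3 (lmFit, eBayes, 8 residual and 9.98 prior degrees of freedom) over 20546 rows, and p-values were adjusted by Benjamini-Hochberg within each contrast. A row passed at an adjusted p of 0.05 or less. The study's 2-fold limit is given beside it. The fit was tested on simulated data. The number of arrays limits precision. The members, gene lists and tests were chosen with earlier results of these data known. Rows were named by size of change among those past the test, up to 12 each way for EBF1, 6 for the difference and 10 for the lines, with the brightest and dimmest of each family and the nearest rows beyond the limit. From each pathway list up to 4 members past the test were to be named. Further rows of the line comparisons and further pathway genes were named after their values were seen. Alternatives covered scaling, dim rows, rows tested, variance models, thresholds, array weights, fits of 2 groups alone, left-out arrays and a block for the replicate number. Figures were drawn with matplotlib 3.10.9.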

Additional observations from a re-analysis of the deposited data

Results flagged for a closer look

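In 9 histone rows the EBF1 effect differed between the lines by a test of the difference itself (limma interaction contrast, adjusted over 20546 rows). Effects in L-428 minus those in L-1236, as log2 values, were 0.74 for H4C8 (limma, adjusted p = 0.000609), 0.72 for the row of H4C15 and H4C14 (adjusted p = 5.32e-05, limma) and 0.65 for the row of H2BC18, H2BP1 and H2BC21 (limma, adjusted p = 0.000319). They were 0.59 for row 7919584 of H2BC18 and H2BP1 (limma, adjusted p = 0.0121), 0.58 for H2BC5 (limma, adjusted p = 0.00547) and 0.36 for H2BC11 (limma, adjusted p = 0.0237). Negative differences were -0.45 for H2BC9 (limma, adjusted p = 0.0467), -0.44 for H2BC10 (limma, adjusted p = 0.049) and -0.43 for H2AC21 (limma, adjusted p = 0.0128). H2AC21 passed in neither line alone, at -0.21 in L-428 and 0.22 in L-1236, and passed in L-428 without L-428 tGFP replicate 3 (-0.30, limma, adjusted p = 0.00319). The calls of H2BC9 and H2BC10 were each lost in 13 of the alternatives run, and that of H2BC11 in 7.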

How the results depend on the processing

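Of 138 calls of histone rows over the 5 comparisons 0 reversed, and 106 kept their side of the 0.05 limit in all alternatives that keep it. Of 220 calls of pathway and marker genes 173 did, and 1 reversed, ASF1B between the lines with EBF1 (-0.0041 under quantile normalization). Counts of histone rows past the test moved for EBF1 in L-428 (6 as reported), EBF1 in L-1236 (12) and the difference (9), in that order as follows. Every row tested gave 2, 7 and 5, where 598, 1607 and 676 rows passed in all. Median centring gave 2, 6 and 4, against 498, 1361 and 599 of all 20546 rows. An adjusted p of 0.01 also gave 2, 6 and 4. Array weights gave 33, 40 and 35 by a method that stopped before convergence, against 2657, 8750 and 4538 of all 20546 rows. The gene-by-gene method, chosen after seeing the data, gave 31, 29 and 31, against 2592, 5176 and 3194 of all rows. Leaving out both arrays that stand apart gave 29, 19 and 27, against 1984, 2640 and 1897 of all rows. Quantile normalization gave 13 in L-428 and 14 for the difference, and a fit of the 2 groups alone gave 2 in L-428. The 2-fold limit left 0 rows in L-428, 0 in L-1236, and 14 and 9 in the line comparisons with tGFP and with EBF1. Leaving out each array in turn gave 2 to 22 in L-428, 7 to 20 in L-1236 and 6 to 22 for the difference. It gave 52 to 62 between the lines with tGFP and 49 to 52 with EBF1. The counts of 22, 20, 22 and 62 came without L-428 tGFP replicate 3, where 1307, 2898, 1457 and 10713 of all 20546 rows passed. Whether equal replicate numbers mark paired samples was not settled. Deviations of same-numbered arrays correlated between -0.33 and 0.28, and the 3 of 12 over 0.1 were all within a line. A replicate block gave 5, 9 and 8 rows, against 731, 1774 and 885 of all 20546 rows. The cause of these moves was not tested. Signal near the bottom of the range limits 10 rows.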
